A study of Mus musculus with 3 samples.

Results

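Histone demethylases of the Jumonji class and other enzymes tied to 2-oxoglutarate were followed in mouse embryonic stem (ES) cells labelled as knockouts of Tet1. The genes are 37 in number: 2-oxoglutarate dioxygenases other than the TET enzymes, and enzymes that make or use up 2-oxoglutarate. They were found by current symbol, accession or older name (Jmjd1a for Kdm3a, Jarid1b for Kdm5b, Fbxl10 for Kdm2b and the like) among the 27666 genes named on the array. They have 67 of its 41174 probes, of which 45 were named by accession, 13 by synonym and 9 by symbol.

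RNA of 3 samples was measured on 1-colour Agilent arrays, 1 array per sample. The samples were KO 4 and KO 22, both labelled Tet1 KO, and 1 sample labelled Tet1 WT. Per the labels, every sample was of the V6.5 ES cell line on a mixed 129 and C57BL6 background, grown on irradiated feeder cells in medium with leukaemia inhibitory factor (LIF), and preplated before RNA was taken. The labels do not say how the knockout was made or whether KO 4 and KO 22 are separate clones or cultures, and the design text speaks of mice, so p-values take in the spread of these samples alone, and that spread may be technical.

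The dioxygenases of this class hold iron and couple the oxidation of 2-oxoglutarate to the hydroxylation of a protein, nucleic acid or small molecule, and release succinate and carbon dioxide. A methyl group on a nitrogen of lysine or of a base becomes unstable when hydroxylated and leaves as formaldehyde. The TET enzymes use the same co-substrate to hydroxylate the carbon-bound methyl group of 5-methylcytosine, where the product is stable and can be oxidised further. The lysine demethylases are known for removing methyl groups from histones, and the prolyl hydroxylases for marking hypoxia-inducible factors (HIF) for destruction.

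Promoter sequences of 4 of the genes are shown because these are the 2 with the most negative and the 2 with the most positive KO minus WT difference among those with an entry in RefSeq's table (build GRCm38.p6). Each runs from 250 bases before to 50 after the annotated start, 5′ to 3′ on the gene's strand, with every CG dinucleotide, the site of DNA methylation and of TET oxidation, in capitals. Kdm5b lies at chr1:134559928-134560227 on the plus strand, Ogdh (the first of its 6 entries) at chr11:6291347-6291646 on the plus strand, Phf2 at chr13:48870836-48871135 on the minus strand and P4ha1 at chr10:59323046-59323345 on the plus strand.
Kdm5b: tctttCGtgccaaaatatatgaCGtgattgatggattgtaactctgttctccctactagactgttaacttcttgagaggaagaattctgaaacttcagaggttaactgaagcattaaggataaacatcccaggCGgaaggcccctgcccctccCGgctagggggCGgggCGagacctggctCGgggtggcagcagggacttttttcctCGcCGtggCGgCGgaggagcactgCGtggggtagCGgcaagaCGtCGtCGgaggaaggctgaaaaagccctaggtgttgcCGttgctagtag
Ogdh: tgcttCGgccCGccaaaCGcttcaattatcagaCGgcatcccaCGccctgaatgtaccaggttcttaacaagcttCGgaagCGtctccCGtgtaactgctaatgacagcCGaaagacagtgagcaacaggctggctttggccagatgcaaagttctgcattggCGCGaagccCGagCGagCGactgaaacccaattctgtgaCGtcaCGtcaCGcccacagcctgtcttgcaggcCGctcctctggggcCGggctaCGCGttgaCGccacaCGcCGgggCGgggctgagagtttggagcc
Phf2: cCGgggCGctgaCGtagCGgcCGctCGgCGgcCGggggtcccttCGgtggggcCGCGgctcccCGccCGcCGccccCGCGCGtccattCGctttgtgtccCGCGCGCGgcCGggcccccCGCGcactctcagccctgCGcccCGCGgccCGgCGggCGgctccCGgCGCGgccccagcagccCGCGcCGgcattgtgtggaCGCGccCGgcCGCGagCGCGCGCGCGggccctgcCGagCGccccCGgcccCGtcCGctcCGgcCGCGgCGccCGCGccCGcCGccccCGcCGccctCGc
P4ha1: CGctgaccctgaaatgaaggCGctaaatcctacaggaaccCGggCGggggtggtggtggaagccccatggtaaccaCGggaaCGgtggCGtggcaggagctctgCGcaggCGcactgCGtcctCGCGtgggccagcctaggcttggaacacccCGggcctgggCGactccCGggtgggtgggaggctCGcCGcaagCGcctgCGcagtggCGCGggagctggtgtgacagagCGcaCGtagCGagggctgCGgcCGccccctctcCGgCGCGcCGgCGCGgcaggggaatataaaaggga
These windows hold 17 CG dinucleotides in Kdm5b, 25 in Ogdh, 63 in Phf2 and 32 in P4ha1. Over the 30 of the 37 genes with an entry, the first promoter held a median of 20.5 (range 0 to 63), against a median of 7 over the 27025 genes with an entry. No binding or methylation was measured here, so the sequences describe the genes and carry no result.

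Values below are processed spot intensities, each scaled so that its array has the 75th percentile of the WT array, and differences are KO minus WT on the log2 scale. Each error is limma's standard error (n = 2 KO arrays against 1 WT array). The WT array has no replicate, and limma assumes that it varies like the KO arrays. Moderation drew each gene's spread toward a shared prior SD of 0.09, so a standard error of 0.09 is a floor common to genes on which both KO arrays agree. The share of non-control spots well above background was 62.5% on KO 4, 62.8% on KO 22 and 62.2% on WT, 0 were saturated, and all 3 arrays lay on 1 slide with 1 scan time. The targeted gene, Tet1, had 186 and 189 on KO 4 and KO 22 against 721 on WT, a difference of -1.94 ± 0.09 (limma adjusted p = 0.0532). With the intensity trend described below, the limma adjusted p of Tet1 was 0.00111. Its probe lies at chr10:62332082-62332141 on build mm7, and since the extent of the deletion was not known here, the value is no check of the labels.

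The comparison asks how transcripts of these enzymes differ in the cells labelled Tet1 KO. Of the 37 genes, 35 were well above background on all 3 arrays and were tested. None of the 35 passed an adjusted p of 0.05 in limma, where 63 of 17733 genes did (0.355%, being 0.0338% higher and 0.321% lower), and their adjusted p ran from 0.106 to 0.969. At an unadjusted p under 0.05 there were 1 higher and 9 lower, where 13.2% of all genes were higher and 14.9% lower. When limma was given an intensity trend, which lets the prior spread depend on brightness, 0 rose and 10 fell (28.6%), where 10.6% of all genes fell and 8.24% rose. Among the 8015 genes brighter than the 75th percentile, a range that holds 26 of the 35 by their WT level, 13.9% fell and 8.83% rose with that trend. Without the trend, limma called 1 of these 8015 higher and 0 lower, so calls were rare at this brightness. At an unadjusted p under 0.05 in limma, 700 of the 8015 were higher and 1088 lower. The median difference of all genes itself moved with level, being 0.03 for genes more than 2 below the 75th percentile on the log2 scale and -0.07 for those 2 to 4 above it. The 10 are the demethylase genes Kdm4b, Kdm5b, Kdm4a, Kdm5c and Kdm3a, the oxygen-sensing hydroxylase genes Egln2 and Hif1an, the lysyl hydroxylase genes Plod1 and Plod3, and Ogdh of the citric acid cycle. The smallest of these 10 differences was -0.29. By their WT level, all of the 10 but Plod1 were brighter than the 75th percentile. Under normexp background correction without 5 far-dim spots 1 of the 35 rose and 7 fell, where 8.09% of all genes rose and 9.06% fell. In the authors' series matrix values none passed in limma, where 2.68% of all genes rose and 2.78% fell.

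The differences were small. None of the 35 genes was 1.5-fold or more from WT on both KO arrays, where 916 genes (5.17%) were that much higher and 781 (4.4%) that much lower, 9.57% in all. Such differences were rarer among bright genes: of the 8015 brighter than the 75th percentile, 181 were that much higher and 115 that much lower. On KO 4 taken without KO 22, Hif1an passed that fold, at -0.59. The 95% interval of every tested gene, built on limma's standard errors, lay inside a 2-fold change, with bounds from -0.95 to 0.84. Lower on both KO arrays were 21 of the 35 and higher on both were 9, with 5 split, where 45.5% of all genes were lower and 38.0% higher. Of the 8015 brighter genes, 4211 were lower on both and 2708 higher. The median difference was -0.12 on KO 4 and -0.14 on KO 22, and -0.13 for their mean, beside -0.03 over all genes tested and -0.06 over the genes brighter than the 75th percentile. Both KO arrays are set against the same WT array, so any error of that array enters both differences alike. The median SD between the KO arrays was 0.05 over the 35 genes, while the scanner's own repeated spots had a coefficient of variation of 9.36%, 11.8% and 11.3% on KO 4, KO 22 and WT. That variation by itself gives a KO minus WT difference a standard error of 0.20. Limma's standard errors for the 35 genes ran from 0.09 to 0.17, so the intervals above may be too narrow.

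**Figure D1:**
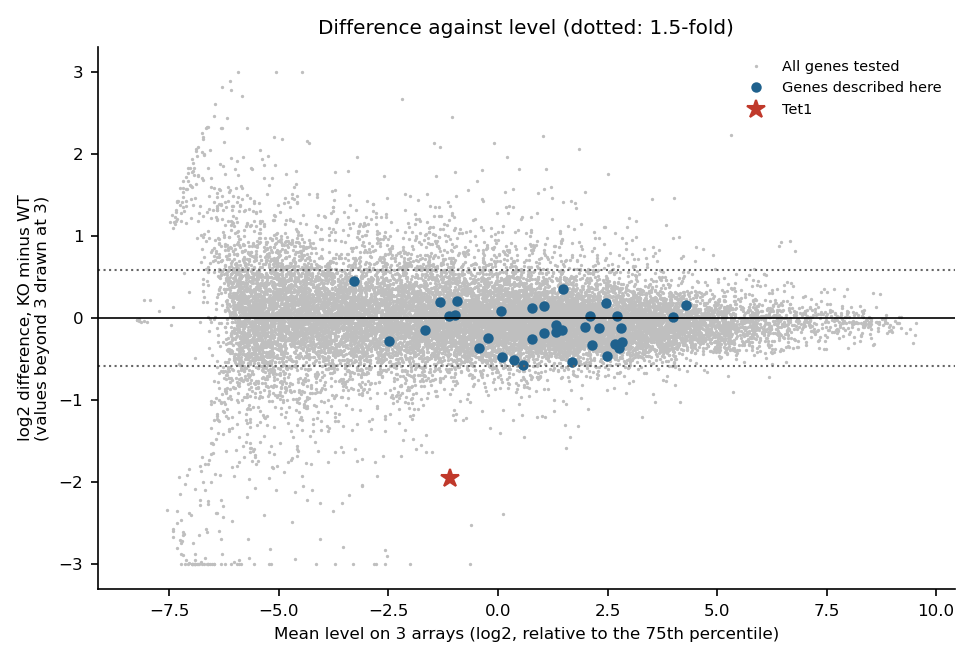
KO minus WT difference (log2, vertical axis, drawn at 3 where beyond it) against the mean level on 3 arrays (log2 relative to the 75th percentile, horizontal axis) of the 17733 genes tested, with the 35 genes and Tet1 marked. All 35 lie between the dotted lines of a 1.5-fold difference, and Tet1 lies at -1.94.

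**Figure D2:**
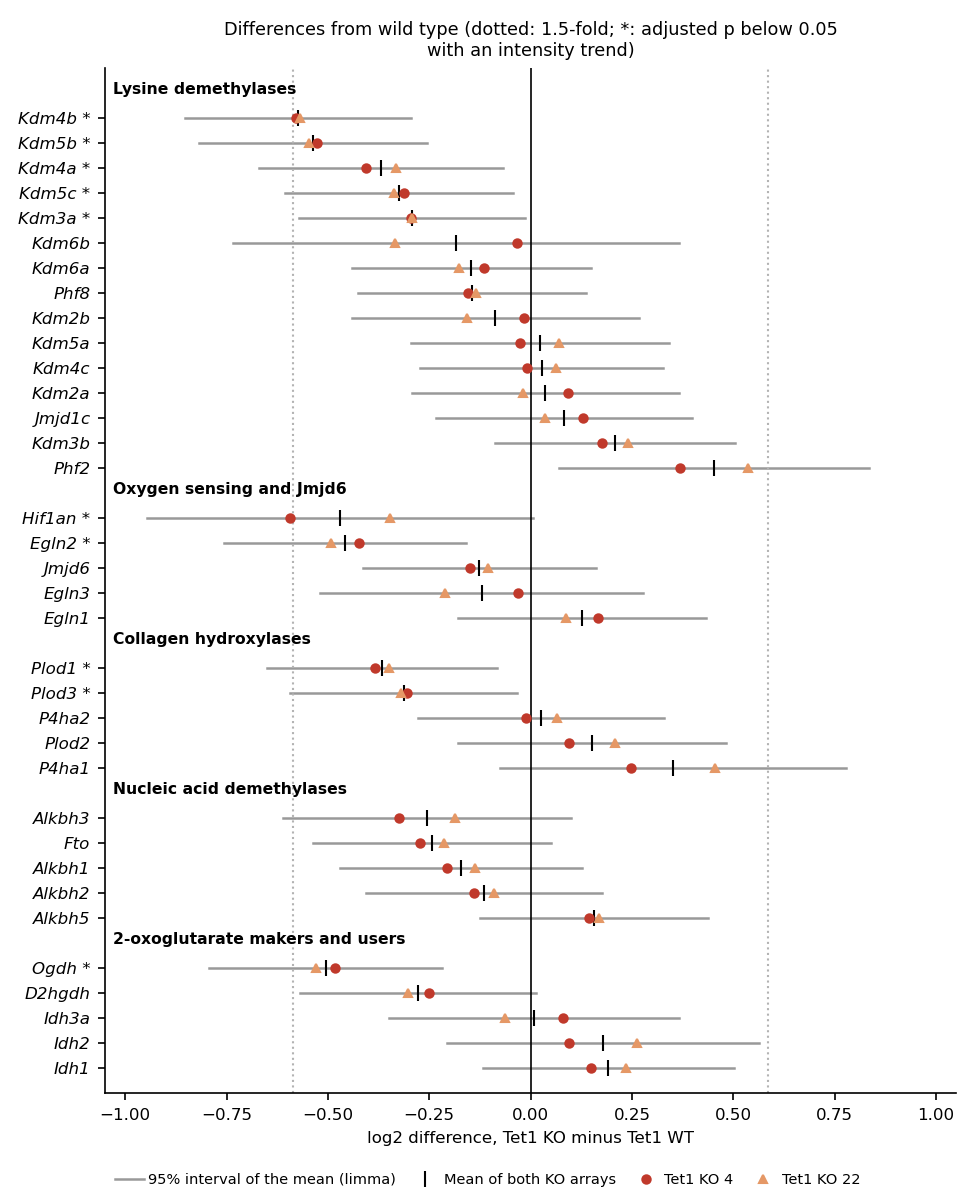
KO minus WT difference (log2, horizontal axis) of the 35 tested genes by role, with a point for each of KO 4 and KO 22, a tick for their mean and a line for its 95% interval from limma. A star marks an adjusted p below 0.05 with an intensity trend, Kdm4b lies lowest at -0.57 and Phf2 highest at 0.45 in these values (0.11 and 0.14 with normexp), and every interval stays within 1 of 0.

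The lysine demethylases, which remove methyl groups from histone tails, made up 15 of the tested genes. On both KO arrays 9 were lower and 3 higher than WT, 5 fell with the intensity trend, and the median difference was -0.14. Kdm4b, a demethylase of histone H3 lysine 9 and itself a HIF target, read 810.1 on KO 4 and 817 on KO 22, against 1211 on WT. The KO arrays lay close together and below WT, with a difference of -0.57 ± 0.09 (1.49-fold, limma adjusted p = 0.106, and 0.0110 with the trend). Its probe, the only one for this gene, lies at chr17:54560709-54560768 on build mm7. Kdm5b, which removes methyl groups from histone H3 lysine 4, had 1783 and 1757 on KO 4 and KO 22, against 2568 on WT. That is -0.54 ± 0.09 (1.45-fold, limma adjusted p = 0.109, and 0.0109 with the trend) for the probe at chr1:134522165-134522224 on build mm7, and the gene's second probe read 641 and 550.5 on the KO arrays against 745 on WT (-0.33). Both probes thus placed both KO arrays below WT, though by unequal amounts.

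Kdm4a, a relative of Kdm4b with the same histone sites, had 3774 on KO 4 and 3972 on KO 22, against 4999 on WT (-0.37 ± 0.10, limma adjusted p = 0.148, and 0.0268 with the trend). A second, dimmer probe gave 193 and 197 against 258 (-0.40). In the same family, Kdm4c had 2643 and 2778 on the KO arrays against 2660 on WT, so KO 4 lay below and KO 22 above (0.03 ± 0.10, 95% interval -0.27 to 0.33). The testis-enriched Kdm4d was not well above background on any array and was not tested. Of the 3 tested genes of this family, Kdm4a and Kdm4b fell with the trend and Kdm4c did not pass, and the difference between them was not tested.

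Kdm3a, a demethylase of histone H3 lysine 9 and also a HIF target, had 4146 and 4153 on KO 4 and KO 22, against 5085 on WT (-0.29 ± 0.09, limma adjusted p = 0.169, and 0.0411 with the trend). Its other 2 probes were lower on both KO arrays as well, by -0.30 and -0.13 in the mean. The relatives Kdm3b and Jmjd1c lay on the other side, at 0.21 ± 0.09 (limma adjusted p = 0.262) and 0.08 ± 0.10 (0.626), and both KO arrays were above WT for each. Neither passed, also with the trend. Kdm3b read 335 on KO 4 and 350 on KO 22, against 297 on WT.

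The Kdm5 enzymes share histone H3 lysine 4 as their substrate. Kdm5c, which is X-linked, had 2590.2 on KO 4 and 2549.5 on KO 22, against 3219 on WT (-0.32 ± 0.09, limma adjusted p = 0.155, and 0.0340 with the trend). Its second probe gave 1139 and 1168 against 1514.5 (-0.39), so both probes had the KO arrays below WT. Kdm5a had 277 and 296.5 on the KO arrays against 282 on WT, a split pair (0.02 ± 0.10, 95% interval -0.30 to 0.34). Another, dim probe of Kdm5a read 6.23 and 4.12 on KO 4 and KO 22, where it was not well above background, and 16.6 on WT. That spot lies in a cluster of spots bright on 1 array, and it takes part in no value given here except the mean over probes.

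The X-linked demethylase genes were 3 in number, and Y-linked transcripts differed between the samples. Kdm6a, an H3 lysine 27 demethylase, had 193 and 185 on KO 4 and KO 22 against 209 on WT (-0.15 ± 0.09, limma adjusted p = 0.384). The plant-homeodomain demethylase Phf8 had -0.14 ± 0.09 (limma adjusted p = 0.368). Kdm5d and Uty, the Y-linked counterparts of Kdm5c and Kdm6a, were not well above background on any array and were not tested. The Y-linked translation factor Eif2s3y fell: it had 15.1 and 19.2 on the KO arrays against 842 on WT (-5.63 ± 0.19, limma adjusted p = 0.0348). Ddx3y, a Y-linked RNA helicase, had 2.13 and 2.72 on the KO arrays, not well above background there, against 190.0 on WT. Their X-linked counterparts Eif2s3x and Ddx3x had differences of -0.10 and -0.24 by the probe used, while another probe of each had both KO arrays above WT (0.13 for Eif2s3x and 0.13 for Ddx3x). The part of the sex chromosomes in the values of the X-linked demethylases was not tested.

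Phf2, a plant-homeodomain relative of Phf8, had the most positive difference of the 35 genes in these values, and its size depended on the background correction. It had 67.0 on KO 4 and 75.3 on KO 22 against 51.9 on WT, by a single probe at chr13:48285413-48285472 on build mm7. Both KO arrays lay above WT, with a difference of 0.45 ± 0.12 (1.37-fold, 95% interval 0.07 to 0.84), which did not pass in limma (adjusted p = 0.152) or with the trend (0.114). It was 0.11 with normexp, 0.14 with normexp without the far-dim spots and 0.33 in the series matrix values, and in these settings P4ha1 was higher, at 0.34, 0.36 and 0.37. For Phf8 the bright probe read 1656 and 1678.5 against 1843 on WT, while a dim one read 19.5 and 25.0 against 12.6 (0.81). The probes of Phf8 therefore differ in sign.

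The other lysine demethylases did not pass, with the trend or without it. Kdm6b, which like Kdm6a acts on H3 lysine 27, had 1364 on KO 4 and 1107 on KO 22, against 1396 on WT. Its KO arrays differed more from each other than those of any other tested gene of the 35 (SD 0.21), and the difference was -0.18 ± 0.17. Kdm2b, which binds unmethylated CpG islands through a zinc finger and brings Polycomb proteins to them, had 1600.5 and 1453 against 1620 on WT (-0.09 ± 0.11, limma adjusted p = 0.646). A second Kdm2b probe read 345 and 369.6 against 340.5 on WT (0.07), with both KO arrays on the other side of WT. Kdm2a, its close relative, had 329 and 304.5 against 309 on WT, a split pair (0.04 ± 0.10).

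**Figure D3:**
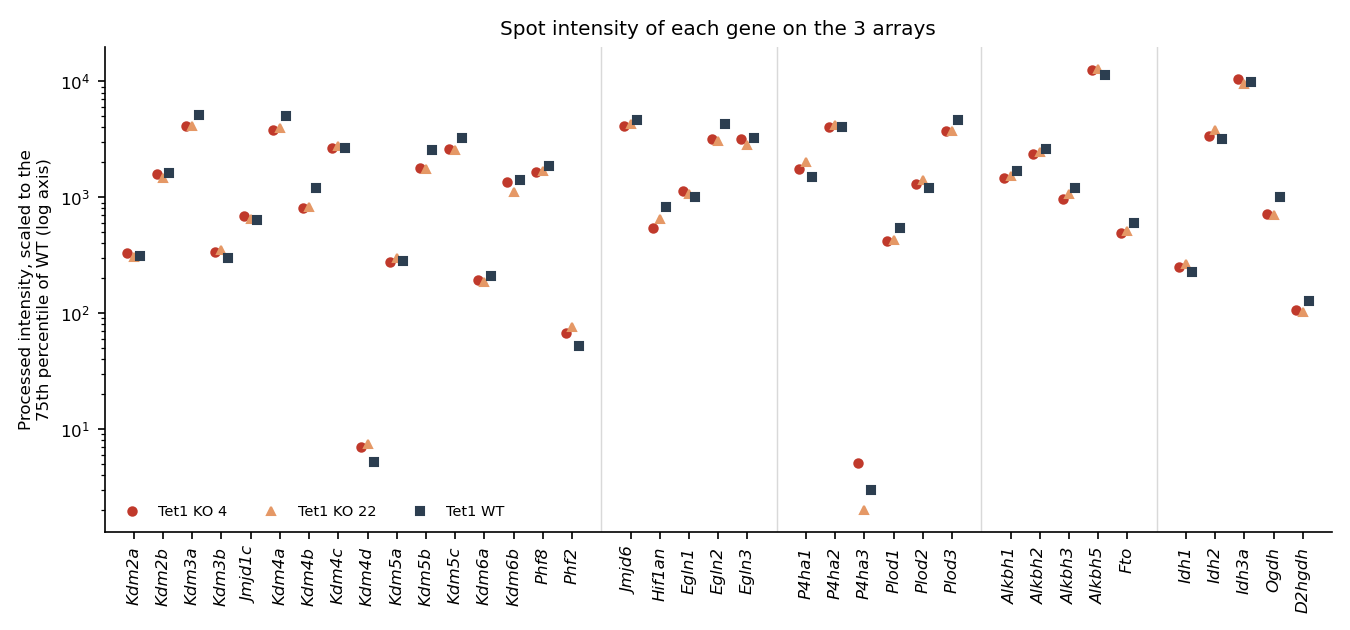
Processed intensity scaled to the 75th percentile of WT (vertical axis, log scale) of each of the 37 genes, ordered by role, 1 point for each of KO 4, KO 22 and WT. Kdm5b reads 1783, 1757 and 2568 on these arrays, Kdm4d and P4ha3 were not well above background, and levels of different genes, read by different probes, are not comparable.

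The hydroxylases of oxygen sensing and Jmjd6 were 5 tested genes, 4 lower and 1 higher on both KO arrays, with a median of -0.13, and 2 of them fell with the trend. Egln2, one of the prolyl hydroxylases that mark HIF for destruction, had 3199 on KO 4 and 3052 on KO 22, against 4293 on WT. Both KO arrays were below WT (-0.46 ± 0.09, 1.37-fold, limma adjusted p = 0.124, and 0.0160 with the trend), and the gene has a single probe, at chr7:24078006-24078065 on build mm7. Egln1, the main HIF prolyl hydroxylase in most cells, had 1127.5 and 1066 against 1004 on WT (0.13 ± 0.10, limma adjusted p = 0.453), above WT on both. Egln3 had 3195 and 2816 against 3262 on WT (-0.12 ± 0.13, limma adjusted p = 0.572). The 95% interval was -0.18 to 0.43 for Egln1 and -0.76 to -0.16 for Egln2, and the difference between these genes was not tested.

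Hif1an, the asparagine hydroxylase that blocks HIF's transactivation domain, had probes that go different ways. Its brightest, at chr19:44469540-44469599 on build mm7, read 545 on KO 4 and 646 on KO 22, against 822 on WT (-0.47 ± 0.15, limma adjusted p = 0.180, and 0.0460 with the trend). The others read 75.3 and 86.0 against 73.3 on WT (0.13), and 53.6 and 63.6 against 43.4 on WT (0.43). The mean over its probes was 0.03 (limma adjusted p = 0.907), so the direction of Hif1an depends on the probe. Jmjd6, a lysyl hydroxylase of splicing proteins, had 4152 and 4282 against 4604.5 on WT (-0.13 ± 0.09, limma adjusted p = 0.427). Of its other 2 probes 1 was lower on both KO arrays and 1 was split.

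Factors and targets of HIF, the substrate of the Egln and Hif1an enzymes, were read beside them. Of 18 such genes outside the 37, 6 were higher and 9 lower on both KO arrays with a median of -0.05, and with the trend 1 rose and 1 fell. Vegfa, the vascular growth factor, had 3026 and 3257 on the KO arrays against 2059 on WT (0.60 ± 0.10, limma adjusted p = 0.112, and 0.0104 with the trend). Ankrd37 had 1973 and 1952 against 2675 on WT (-0.45 ± 0.09, limma adjusted p = 0.121, and 0.0163 with the trend). Known HIF targets among the 37 genes likewise lay on either side, Kdm4b, Kdm3a and Egln3 below WT and P4ha1 above it. The core HIF motifs ACGTG and GCGTG, sought on both strands with overlaps counted, occur in the first promoter of 20 of the 30 genes with an entry (66.7%), against 43.8% of all first promoters. Each motif holds a CG dinucleotide, and these promoters hold more of those (median 20.5 against 7). The share among promoters with a like number of CG dinucleotides was not counted, so the 2 shares show no excess of HIF sites. The windows printed above hold 2 in Kdm5b, 4 in Ogdh, 3 in P4ha1 and 0 in Phf2, and those of Egln1, Egln2 and Egln3 hold 2, 6 and 1.

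The collagen hydroxylases were 5 tested genes, 2 higher and 2 lower on both KO arrays, with a median of 0.03. Plod1, which hydroxylates lysines of collagen for cross-linking, had 418 on KO 4 and 428 on KO 22, against 546 on WT (-0.37 ± 0.09, limma adjusted p = 0.142, and 0.0428 with the trend). Plod3, which also adds sugars to those lysines, had 3738 and 3698 against 4620 on WT (-0.31 ± 0.09, limma adjusted p = 0.160, and 0.0353 with the trend). Its second probe read 468 and 470.4 against 593 on WT (-0.34). Both genes thus had both KO arrays below WT, while Plod2, the lysyl hydroxylase of the collagen telopeptides, was above WT on both (0.15 ± 0.10, limma adjusted p = 0.413).

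P4ha1, a catalytic subunit of collagen prolyl 4-hydroxylase, had 1759 on KO 4 and 2029 on KO 22, against 1481 on WT. Its probe lies at chr10:58889719-58889778 on build mm7. Both KO arrays were above WT, by 0.25 and 0.45 (0.35 ± 0.14, 1.28-fold, limma adjusted p = 0.220, and 0.0677 with the trend). A second probe read 396 and 483 against 330.4 on WT (0.41). P4ha2, an alternative catalytic subunit, had 4010.2 and 4230 against 4044 on WT (0.03 ± 0.10, 95% interval -0.28 to 0.33). The third subunit gene, P4ha3, was not well above background on any array and was not tested. The partner subunit P4hb, known also as protein disulfide isomerase, had 12444 and 13127 against 17213 on WT (-0.43 ± 0.10, limma adjusted p = 0.131, and 0.0184 with the trend).

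The substrates of these hydroxylases differed between the KO arrays. Collagens and collagen partners, 17 genes, had medians of 0.20 (KO 4) and -0.09 (KO 22), with 5 higher, 7 lower and 5 split. Col1a1 had 678 on KO 4 and 386 on KO 22, against 342 on WT, and Col3a1 had 321 and 138 against 146.5 on WT. Col5a1, the only gene of the 17 at least 1.5-fold higher on both KO arrays, had 1403 and 974 against 646 on WT. Its difference was 0.855 ± 0.276 (limma adjusted p = 0.182, and 0.0358 with the trend). With the trend 1 of the 17 rose and 2 fell. Fibroblast markers, which feeder cells would bring, had medians of 0.55 (KO 4) and -0.08 (KO 22) over 17 of 18 genes tested (Fap was not well above background). Their summed level, in units of each array's 75th percentile, was 68.0 on KO 4, 52.4 on KO 22 and 44.2 on WT. Without Tagln, the gene with the most signal in that sum and left out after the values were seen, it was 40.7 on KO 4, 33.8 on KO 22 and 36.0 on WT, with KO 22 below WT. None of them passed in limma, while at an unadjusted p under 0.05 there were 2 higher and 1 lower, and with the trend 1 rose. In these bulk samples, fewer cells of a type and less RNA per cell cannot be told apart. The part of carried-over feeder RNA in these values was not tested. Of 14 markers of primitive endoderm, a lineage rich in basement membrane collagen, 9 were lower and 2 higher on both KO arrays, and the median was -0.57 for KO 4 and -0.63 for KO 22. On both KO arrays 7 of the 14 were at least 1.5-fold lower, 6 (42.9%) fell with the trend, and none passed in limma, while 8 were lower at an unadjusted p under 0.05. Foxa2, an endoderm transcription factor, had 166 and 146.0 on KO 4 and KO 22 against 461 on WT (-1.63 ± 0.12, limma adjusted p = 0.0821, and 0.00289 with the trend). Of the matrix genes among the 14, Lama1 was lower (-1.24), while Col4a1, Col4a2, Lamb1, Lamc1 and Sparc lay between -0.18 and 0.14. The summed level of the 14 was 42.2 on KO 4, 39.8 on KO 22 and 41.7 on WT. Without Lamc1, the gene with the most signal, left out in the same way, it was 24.45, 24.08 and 24.85. The 14 include P4ha2, itself among the 35 genes. The part of these lower markers in the values of the 35 genes was not tested. Markers of ES cells were present, with 5 higher and 9 lower of 15 tested, and with the trend 2 rose and 4 fell. Their summed level was 849 on KO 4, 971.5 on KO 22 and 913 on WT, and without Dppa5a, left out in the same way, 381 on KO 4, 379 on KO 22 and 374 on WT.

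**Figure D4:**
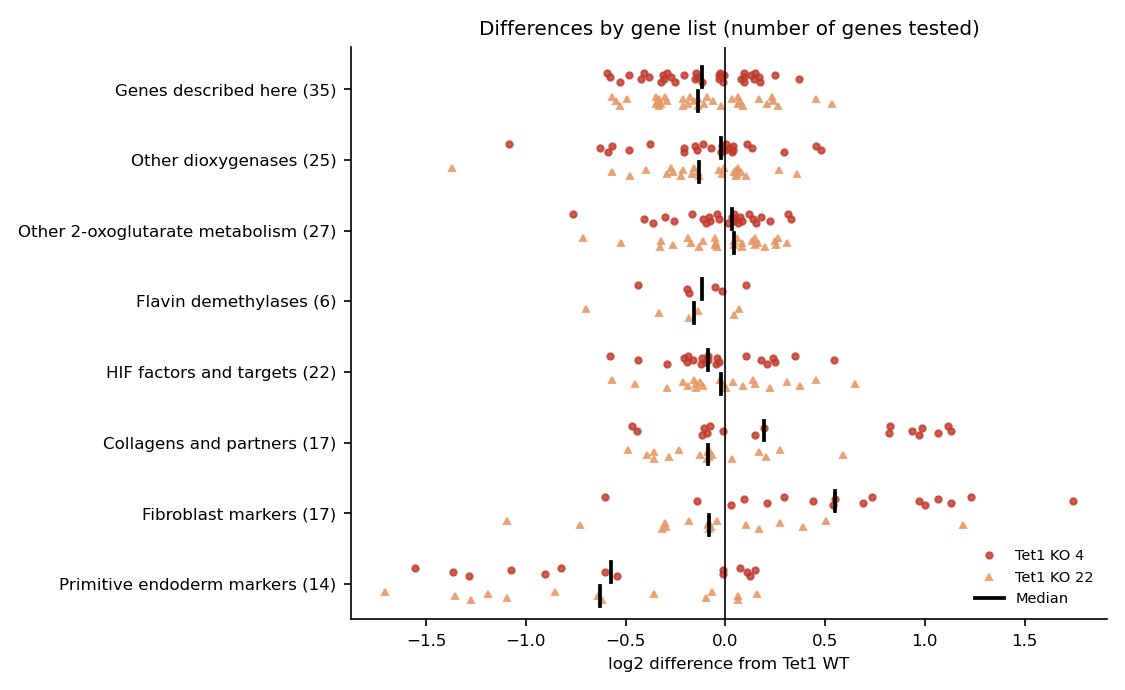
Differences from WT (log2, horizontal axis) of single genes on KO 4 and KO 22, with a bar at each median. Drawn are the 35 tested genes, the related lists and the marker lists of fibroblasts and primitive endoderm. The HIF list is drawn with all its 22 genes, and a gene in more than 1 list is drawn in each. The median of the 35 is -0.12 on KO 4 and -0.14 on KO 22, while that of the fibroblast markers is 0.55 on KO 4 and -0.08 on KO 22.

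The nucleic acid demethylases of the AlkB family were 5 tested genes, 4 lower and 1 higher on both KO arrays, with a median of -0.17, and none passed in limma, with the trend or at an unadjusted p under 0.05. Alkbh3, which repairs alkylated DNA and RNA, had 960.2 and 1057 on KO 4 and KO 22 against 1203 on WT (-0.26 ± 0.11, limma adjusted p = 0.256). Alkbh2, a DNA repair dioxygenase, had -0.12 ± 0.09 (limma adjusted p = 0.470). The demethylases of methyladenosine in RNA lay on opposite sides of WT. Alkbh5 had 12547 and 12778 against 11363 on WT (0.16 ± 0.09, limma adjusted p = 0.341), while Fto had 494 and 514 against 597 on WT (-0.24 ± 0.09, limma adjusted p = 0.218). The difference between them was not tested.

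Probes of Fto and of Alkbh1 did not give 1 direction. For Fto, a second probe read 60.1 and 50.9 against 68.0 on WT (-0.30) and the other 181 and 168 against 162 on WT (0.11). Alkbh1, which acts on transfer RNA, had 1467.5 and 1538 against 1693 on WT (-0.17 ± 0.09, limma adjusted p = 0.326), and a dim probe read 15.1 and 17.2 against 13.8 on WT (0.23). Across the 35 genes, 19 had 2 or more probes well above background on all 3 arrays, with a median spread of 0.17 between probes of a gene. The sign of the mean difference varied between probes in 6 of the 19: Alkbh1, Fto, Hif1an, Jmjd6, Kdm2b and Phf8. Of the 10 genes that fell with the trend, 7 had other such probes, and in 6 of these 7 every other probe was lower on both KO arrays, with Hif1an the exception. The remaining 3, Kdm4b, Egln2 and Plod1, rest on a single probe.

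**Figure D5:**
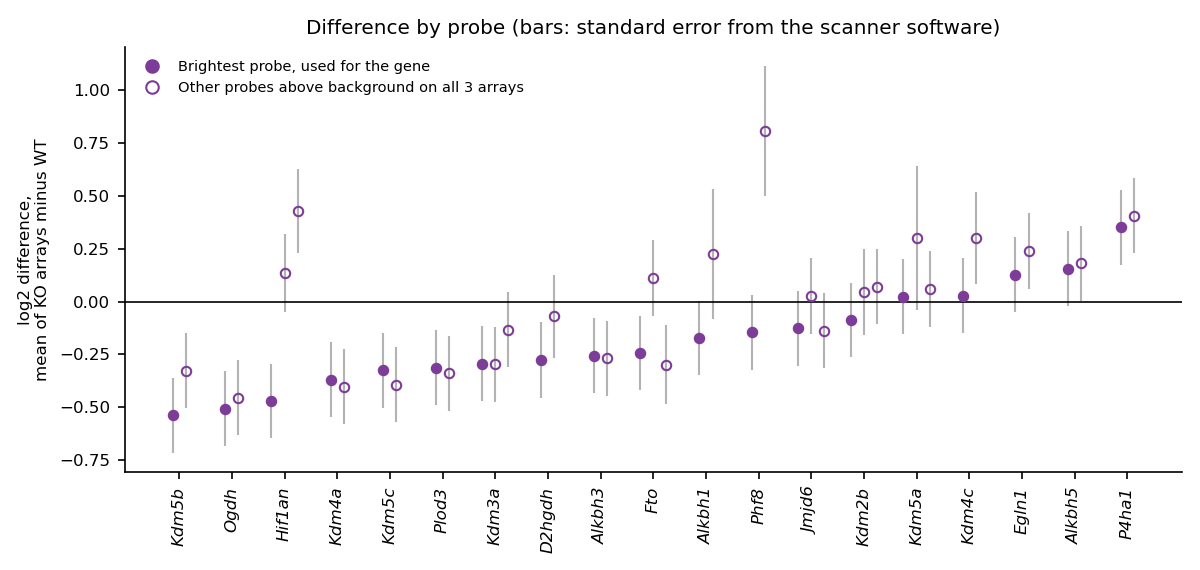
KO minus WT difference (log2, vertical axis) of every probe well above background on all 3 arrays, for the 19 genes with 2 or more such probes, with the scanner software's standard error as a line. The probes of Ogdh lie at -0.51 and -0.46, whereas those of Hif1an run from -0.47 to 0.43.

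The enzymes that make or use up 2-oxoglutarate were 5 tested genes, 2 higher and 2 lower on both KO arrays, with a median of 0.01. Ogdh, the subunit of the 2-oxoglutarate dehydrogenase complex that consumes 2-oxoglutarate in the citric acid cycle, had 724 on KO 4 and 700.3 on KO 22, against 1011 on WT. Its probe at chr11:6307299-6307358 on build mm7 was lower on both (-0.51 ± 0.09, 1.42-fold, limma adjusted p = 0.113, and 0.0162 with the trend), and its second probe read 571 and 575.5 against 786 on WT (-0.46). The isocitrate dehydrogenases that make 2-oxoglutarate did not pass, with the trend or without it. Idh1, the cytosolic one, had 0.19 ± 0.10 (limma adjusted p = 0.301) and Idh2, the mitochondrial NADP-linked one, 0.18 ± 0.12 (0.409), each with both KO arrays above WT. Idh3a, the catalytic subunit of the NAD-linked enzyme, had 10542 and 9541 on the KO arrays against 9970.1 on WT (0.01 ± 0.11, 95% interval -0.35 to 0.37). D2hgdh, which turns D-2-hydroxyglutarate back into 2-oxoglutarate, had 106 and 102 against 126 on WT (-0.28 ± 0.09, limma adjusted p = 0.187). Its second probe was split (-0.07), and the difference was -0.14 with normexp and -0.17 with the mean of probes.

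Other genes of 2-oxoglutarate metabolism, 27 in number, were 13 higher and 11 lower on both KO arrays with a median of 0.01, and with the trend 2 rose and 2 fell. Dld, a subunit shared by the Ogdh complex and pyruvate dehydrogenase, was higher (0.28 ± 0.09, limma adjusted p = 0.184, and 0.0492 with the trend). Psat1, which makes 2-oxoglutarate while forming phosphoserine, had 22091 and 19820 on the KO arrays against 28434 on WT (-0.44 ± 0.12, limma adjusted p = 0.151, and 0.0258 with the trend). Gpt2, a mitochondrial alanine transaminase, was -0.37 ± 0.10 (0.153, and 0.0294 with the trend), and the branched-chain transaminase Bcat1 0.32 ± 0.09 (0.157, and 0.0319 with the trend). Adhfe1, a hydroxyacid transhydrogenase, had 15.5 and 16.1 against 26.4 on WT (-0.74 ± 0.09, limma adjusted p = 0.101, and 0.107 with the trend).

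Dioxygenases of the class that are not among the 37 were read in the same way. Of 29 listed, 28 had a probe and 25 were tested: 7 were higher and 12 lower on both KO arrays, with a median of -0.05, and with the trend 2 rose and 4 fell. Asphd1, named for its likeness to aspartate hydroxylase, had 87.3 and 71.6 on KO 4 and KO 22 against 185 on WT (-1.23 ± 0.17, limma adjusted p = 0.102, and 0.00980 with the trend). Alkbh4, an AlkB family member, had 1531 and 1666 against 2515 on WT (-0.60 ± 0.09, limma adjusted p = 0.106, and 0.00949 with the trend). Jmjd8 and Alkbh6 were lower by -0.49 and -0.48, and Phyhd1 and the peroxisomal phytanoyl-CoA hydroxylase Phyh were higher by 0.41 and 0.28. The flavin-dependent lysine demethylases and their partners, which need no 2-oxoglutarate, were 6 genes with 4 lower and 1 higher and a median of -0.14. Of these, Hmg20b had 623 and 519 against 844 on WT (-0.57 ± 0.16, limma adjusted p = 0.156, and 0.0304 with the trend).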

How the data were processed

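RNA of 3 samples (2 Tet1 KO, 1 Tet1 WT) was read on 1-colour arrays. Scanner files with deposited intensity values came from Agilent Feature Extraction 10.1.1.1, background-subtracted and detrended within each array, with dim values replaced, per the file headers. The deposited series matrix holds log2 values whose 3 columns share the same quantiles; its background correction is unknown, and limma is named, with no version, per the submitters' processing notes. Probe positions are those of the files, on build mm7; promoters are RefSeq's on GRCm38.p6.

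Levels were log2 of processed intensity over the array's 75th percentile. Flagged outlier and control spots were left out, repeated spots averaged, and a probe was tested if well above background on at least 1 array. The brightest probe represented its gene. The comparison used limma 3.58.1 (R 4.3.3; lmFit, eBayes, Benjamini-Hochberg over 17733 genes), with 1 residual degree of freedom and 3.03 after moderation. The steps were tested on simulated data with a common spread and changes larger than any difference of the genes described here. That test therefore does not cover differences of their size. Precision is limited by the number of arrays.

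The genes and lists were chosen with earlier results of these data known. Every gene is named; values on every array go to those called with or without an intensity trend, those 1.5-fold apart on both KO arrays, those whose probes differ in sign and the 3 largest differences each way. Genes of the related lists are named as examples, by no fixed rule. Alternatives changed the scaling, background correction (normexp, offset 50), filter, trend, probe rule and arrays used.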

Additional observations from a re-analysis of the deposited data

How the results depend on the processing

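No paired analysis was possible because 1 WT array stood against 2 KO arrays. The median difference of the genes (-0.127) was -0.096 with quantile normalization, -0.147 with scaling on the median, -0.089 with normexp as planned, -0.092 without 5 far-dim spots in normexp, -0.094 in the series matrix values and -0.079 with the mean of probes. Over all genes (6 higher, 57 lower), the counts were 14 higher with median scaling, 1441 higher and 1607 lower with normexp, 1434 and 1607 without its far-dim spots, 476 and 493 in the series matrix, 1461 and 1875 with an intensity trend, 496 and 410 with a filter on all 3 arrays, 0 and 0 with no filter, and 25 lower without clustered bright spots. Of the 35 genes, 1 was called higher and 8 lower with normexp (1 and 7 without the far-dim spots), 10 lower with the trend, and 0 in the series matrix, where Kdm4b had a limma adjusted p of 0.0579. P4ha1 was the higher one (limma adjusted p = 0.0442 and 0.0450). Kdm4b was 1.5-fold lower on both KO arrays with median scaling, 1 gene against 0, and leaving out a KO array gave 0 to 1 (Hif1an, without KO 22).

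Of the 35 genes, 27 kept their sign in all 10 alternatives with a test and 8 turned. Kdm2a turned to -0.006 with quantile normalization and Idh3a to -0.012 with median scaling. Kdm5a turned to -0.015 (quantile), -0.024 and -0.027 (normexp with and without the far-dim spots), -0.025 (series matrix) and -0.331 (mean of probes). The mean of probes turned Alkbh1 to 0.026, Hif1an to 0.031, Jmjd1c to -0.041, Kdm2b to 0.009 and Phf8 to 0.331. Without a change of sign, Phf2 (0.452) was 0.106 and 0.141 in the normexp settings, D2hgdh (-0.277) -0.138 and -0.178, Kdm3b (0.207) 0.113 and 0.133 and Egln3 (-0.121) -0.046 and -0.047. Jmjd6 (-0.127) was -0.069 with quantile normalization, Alkbh5 (0.156) was 0.248 in the series matrix, and Fto (-0.243) was -0.143 with the mean of probes. The median of other 2-oxoglutarate metabolism (0.007) was 0.074, 0.099 and 0.112 with quantile normalization, normexp without far-dim spots and the series matrix, that of the flavin demethylases (-0.138) was -0.091, -0.057 and -0.056, and that of the 22 HIF factors and targets (-0.085) was -0.03 with each of the last 2. The cause of these moves was not tested.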
